A study of Mus musculus with 28 samples.

Results

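The epidermal growth factor (EGF) receptor family members Egfr, Erbb2 and Erbb3, 6 ligands of the family and the receptor inhibitor Errfi1 were followed as messenger RNA in hair follicle stem cells of Alkbh5 conditional knockout (cKO) mice and of wild-type (WT) mice. The 10 genes were taken by symbol: the 3 receptors, the ligands Hbegf, Areg, Ereg, Tgfa, Btc and Epgn, and Errfi1. All 10 were found among the 56691 genes of the bulge table, the 47243 of the first hair germ table and the 57010 of the second. Alkbh5 encodes a demethylase that acts on m6A, a methyl mark of RNA. Mice of both genotypes were at postnatal day 69. Bulge cells were measured by SHERRY2, a method that tags RNA/cDNA hybrids with a transposase, from 200 ng of RNA, and hair germ cells by SHERRY2 and, in a second experiment, by SMART-seq, from 40 ng. Each of these 3 datasets had 2 cKO and 2 WT libraries, 12 in all, and the 16 m6A libraries of the series were not analysed here. Cells were sorted by flow cytometry, and the sources used here name neither the sort markers nor the Cre driver nor the deleted exon.

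EGF family ligands are made as membrane-bound precursors, which proteases of the ADAM family cut free so that they can bind a receptor on the same or a neighbouring cell. Egfr binds all 6 of these ligands, Erbb2 has no known ligand and pairs with the other receptors, and Erbb3 binds neuregulins and has a weak kinase. The bound receptors signal through the ERK kinases, among others, and Errfi1 (also called Mig6), whose transcription that signal raises, binds the kinase domain of Egfr and blocks it. In mouse skin, loss of Tgfa or reduced Egfr activity gives a wavy coat.

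Libraries held 14676168 to 21187283 reads in genes in the bulge, 488648 to 2317407 in hair germ SHERRY2 and 9001396 to 14416601 in hair germ SMART-seq. Alkbh5 had 68 and 50 reads in bulge cKO libraries, against 2095 and 1351 in bulge WT libraries. In hair germ SHERRY2 it had 27 and 16 reads in cKO libraries, against 95 and 30 in WT libraries. In SMART-seq the libraries labelled cKO had 1141 and 946 reads of Alkbh5, against 1903 and 1102 in WT libraries, so the gene was not lost there and the SMART-seq directions below rest on labels that Alkbh5 does not bear out. All 13 keratinocyte and follicle stem cell markers, Krt5, Krt14, Krt15 and Cd34 among them, had reads in each group of each dataset. By Xist and Y-linked genes, bulge WT library 2, cKO library 1 of hair germ SHERRY2 and number 2 of each SMART-seq genotype were male, and the other mice female.

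In bulge stem cells 2 ligands and the inhibitor were lower in cKO: Areg 7.07-fold, Hbegf 4.09-fold and Errfi1 3.06-fold. No member was higher at an adjusted p under 0.05. Egfr and Epgn had the 2 highest positive log2 fold changes among the members, 0.61 and 1.08, and did not pass. With edgeR's quasi-likelihood test and Benjamini-Hochberg adjustment over all 15672 genes tested, 3 of the 10 members passed, all 3 lower in cKO. Over all genes tested, 3.04% passed, with 1.44% higher and 1.6% lower in cKO. The members' median log2 fold change was -0.74, beside -0.01 over all genes tested.

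Areg encodes amphiregulin, a ligand of Egfr that keratinocytes make for themselves. It had 2.16 and 2.63 CPM (its reads scaled to the library's total reads in genes) in cKO libraries, against 16.8 and 13.4 CPM in WT libraries, from 33 and 52 reads against 355 and 196. Both cKO libraries lay far below both WT libraries, and the libraries of 1 genotype were close to each other. The group means were 2.39 ± 0.329 CPM in cKO and 15.1 ± 2.40 CPM in WT (SD, n = 2 each), and the log2 fold change was -2.82 (SE 0.32, adjusted p = 0.00672, edgeR).

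Hbegf encodes heparin-binding EGF-like growth factor, a ligand linked to keratinocyte migration during wound closure. It had 41.4 and 20.1 CPM in cKO libraries, against 119 and 103 CPM in WT libraries. The groups did not overlap, and cKO library 2 was the lowest of the 4. The log2 fold change was -2.03 (SE 0.31, adjusted p = 0.0202, edgeR).

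Errfi1 had 111 and 98.1 CPM in cKO libraries, against 358 and 205 CPM in WT libraries. Both WT libraries were higher than both cKO libraries, and WT library 1 was the highest. The log2 fold change was -1.61 (SE 0.27, adjusted p = 0.026, edgeR). These 3 calls held with other size factors, with DESeq2, without a filter on low counts and with each library left out.

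The start regions of these genes are shown because Areg and Errfi1, both lower in cKO, carry the same pair of short matches. The start of Epgn, which had the opposite sign in the bulge, does not hold the whole pair. Hbegf, also called lower, was not searched, so the pair cannot be read as a trait of the lower members. Sequences are the 250 bases before the annotated start of transcription, 5′ to 3′ on the gene's strand, from RefSeq on GRCm38.p6. The start regions of 7 of the 10 members were searched. Those of Ereg, Erbb3 and Hbegf were left out of the search, and these genes are named only. Capitals mark TGACGTCA, the full cyclic AMP response element (CRE), and TATAAA, the core of the box found near many starts (the TATA box), and both strands were searched.
Areg, chr5:91139349-91139598, plus strand: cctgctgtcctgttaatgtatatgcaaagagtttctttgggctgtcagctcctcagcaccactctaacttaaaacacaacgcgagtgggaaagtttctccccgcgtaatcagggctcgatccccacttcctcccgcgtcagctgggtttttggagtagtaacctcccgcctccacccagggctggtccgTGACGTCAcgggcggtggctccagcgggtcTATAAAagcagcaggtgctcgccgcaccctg
Errfi1, second annotated start, chr4:150854820-150855069, plus strand: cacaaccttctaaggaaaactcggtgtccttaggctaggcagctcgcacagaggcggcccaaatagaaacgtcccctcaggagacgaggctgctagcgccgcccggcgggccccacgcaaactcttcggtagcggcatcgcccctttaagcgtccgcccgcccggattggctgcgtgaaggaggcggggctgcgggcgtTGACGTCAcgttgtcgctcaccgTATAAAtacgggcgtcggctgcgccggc
Epgn, chr5:91027267-91027516, plus strand: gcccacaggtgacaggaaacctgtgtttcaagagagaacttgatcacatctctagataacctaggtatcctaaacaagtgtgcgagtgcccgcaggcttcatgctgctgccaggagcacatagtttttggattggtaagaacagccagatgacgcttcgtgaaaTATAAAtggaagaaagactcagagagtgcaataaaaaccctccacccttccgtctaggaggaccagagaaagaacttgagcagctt

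In Areg the CRE match lay at -61 to -54 from the start and the TATA box at -31 to -26. In Errfi1 they lay at -51 to -44 and -28 to -23 of the second start, and the first annotated start held neither. In Epgn the TATA box match lay at -86 to -81. The CRE letters were found in 1.55% of 32851 promoters of this length, TATAAA in 12.4%, and both together in 0.119%, which is 39 promoters. Egfr, Erbb2, Tgfa and Btc held neither. In all 8 motifs were searched. AP-1 (TGANTCA, in 6.75% of promoters), the serum response element (1.47%), the NF-kB site (7.25%) and the Egr1 site (GCGTGGGCG, 0.536%) had no match in these windows. The GC box (GGGCGG, 32.7%) matched in Errfi1, Areg, Tgfa and Egfr. The first 5 letters of the CRE (TGACG, 17.8%), which each full CRE holds on both strands, matched in Errfi1, Areg, Epgn, Btc and Erbb2. Of 329 tested genes with a CRE match, 2.74% were lower and 2.43% higher in bulge cKO at an adjusted p under 0.05 in edgeR, beside 1.6% and 1.44% of all genes tested. Of the 24 tested genes with both matches, 3 were lower, Areg and Errfi1 among them, and 1 was higher. The pair was picked because Areg and Errfi1, already called lower in these libraries, carry it, so this count cannot test the pair. Which of the annotated starts was used in these cells was not measured, and a match to these letters is a description of the sequence only.

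The other 4 ligands did not pass in the bulge. Epgn encodes epigen, a ligand that binds Egfr with low affinity. It had 279 and 412 CPM in cKO libraries, against 186 and 102 CPM in WT libraries, so that both cKO libraries lay above both WT libraries. Its log2 fold change was 1.08 (SE 0.31, adjusted p = 0.114, edgeR). Without WT library 1 it passed at 1.60 (adjusted p = 0.0291, edgeR), and without cKO library 1 at 1.36 (adjusted p = 3.61e-06, edgeR).

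Ereg, which encodes epiregulin, had 5.96 and 5.60 CPM in cKO libraries, against 19.2 and 2.93 CPM in WT libraries. The WT libraries lay on both sides of the cKO libraries, and the log2 fold change of -1.14 (SE 0.71, adjusted p = 0.449, edgeR) turned to 0.83 without WT library 1 (adjusted p = 0.459, edgeR). It passed at -1.16 without cKO library 1 (adjusted p = 0.0356, edgeR) and at -1.94 without WT library 2 (adjusted p = 0.0408, edgeR). The direction of Ereg therefore rested on WT library 1.

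Btc, which encodes betacellulin, had 6.02 and 1.82 CPM in cKO libraries, against 15.6 and 4.63 CPM in WT libraries. Those groups overlapped, with a log2 fold change of -1.57 (SE 0.69, adjusted p = 0.273, edgeR). It passed without cKO library 1, at -2.64 (adjusted p = 1.16e-06, edgeR), and was -0.95 without cKO library 2, -2.21 without WT library 2 and -0.40 without WT library 1. Tgfa, which encodes transforming growth factor alpha, had 22.1 and 23.6 CPM in cKO libraries, against 33.7 and 17.4 CPM in WT libraries. Its log2 fold change of -0.35 (SE 0.31, adjusted p = 0.607, edgeR) turned to 0.24 without WT library 1. WT library 1 was the highest of the 4 bulge libraries for Areg, Hbegf, Ereg, Btc, Tgfa and Errfi1.

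None of the 3 receptors passed in the bulge with edgeR. Egfr had 344 and 314 CPM in cKO libraries, against 212 and 170.1 CPM in WT libraries, with no overlap. Its log2 fold change of 0.61 (SE 0.18, adjusted p = 0.116) did not pass in edgeR and passed in DESeq2 (adjusted p = 0.0186). Erbb2 had 199 and 214 CPM in cKO libraries, against 151 and 140.0 CPM in WT libraries, with a log2 fold change of 0.33 (SE 0.15, adjusted p = 0.282, edgeR).

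Erbb3 had 192 and 203 CPM in cKO libraries, against 184 and 192 CPM in WT libraries, and the groups overlapped. Its log2 fold change was -0.10 (SE 0.14, adjusted p = 0.762, edgeR), of opposite sign to the CPM, because the scaling of the test moved all bulge cKO values down by 0.16 on the log2 scale relative to CPM. In all, 6 of the 10 members did not overlap between genotypes in bulge CPM, Egfr, Erbb2 and Epgn higher and Areg, Hbegf and Errfi1 lower in cKO. Among all genes tested 54.4% did not overlap, 38.9% higher and 15.5% lower, so the count of members without overlap is near the background. On the TMM scale of the test Erbb3 also lay without overlap and lower in cKO, which made 7 of the 10 members, beside 50% of the genes tested, 24.3% higher and 25.7% lower. Erbb4, the remaining receptor of the family, had 1 and 1 reads in bulge cKO libraries and none in WT libraries, and did not enter the test. Egf itself had 22 and 38 reads in cKO libraries, against 17 and 22 in WT libraries.

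**Figure D1:**
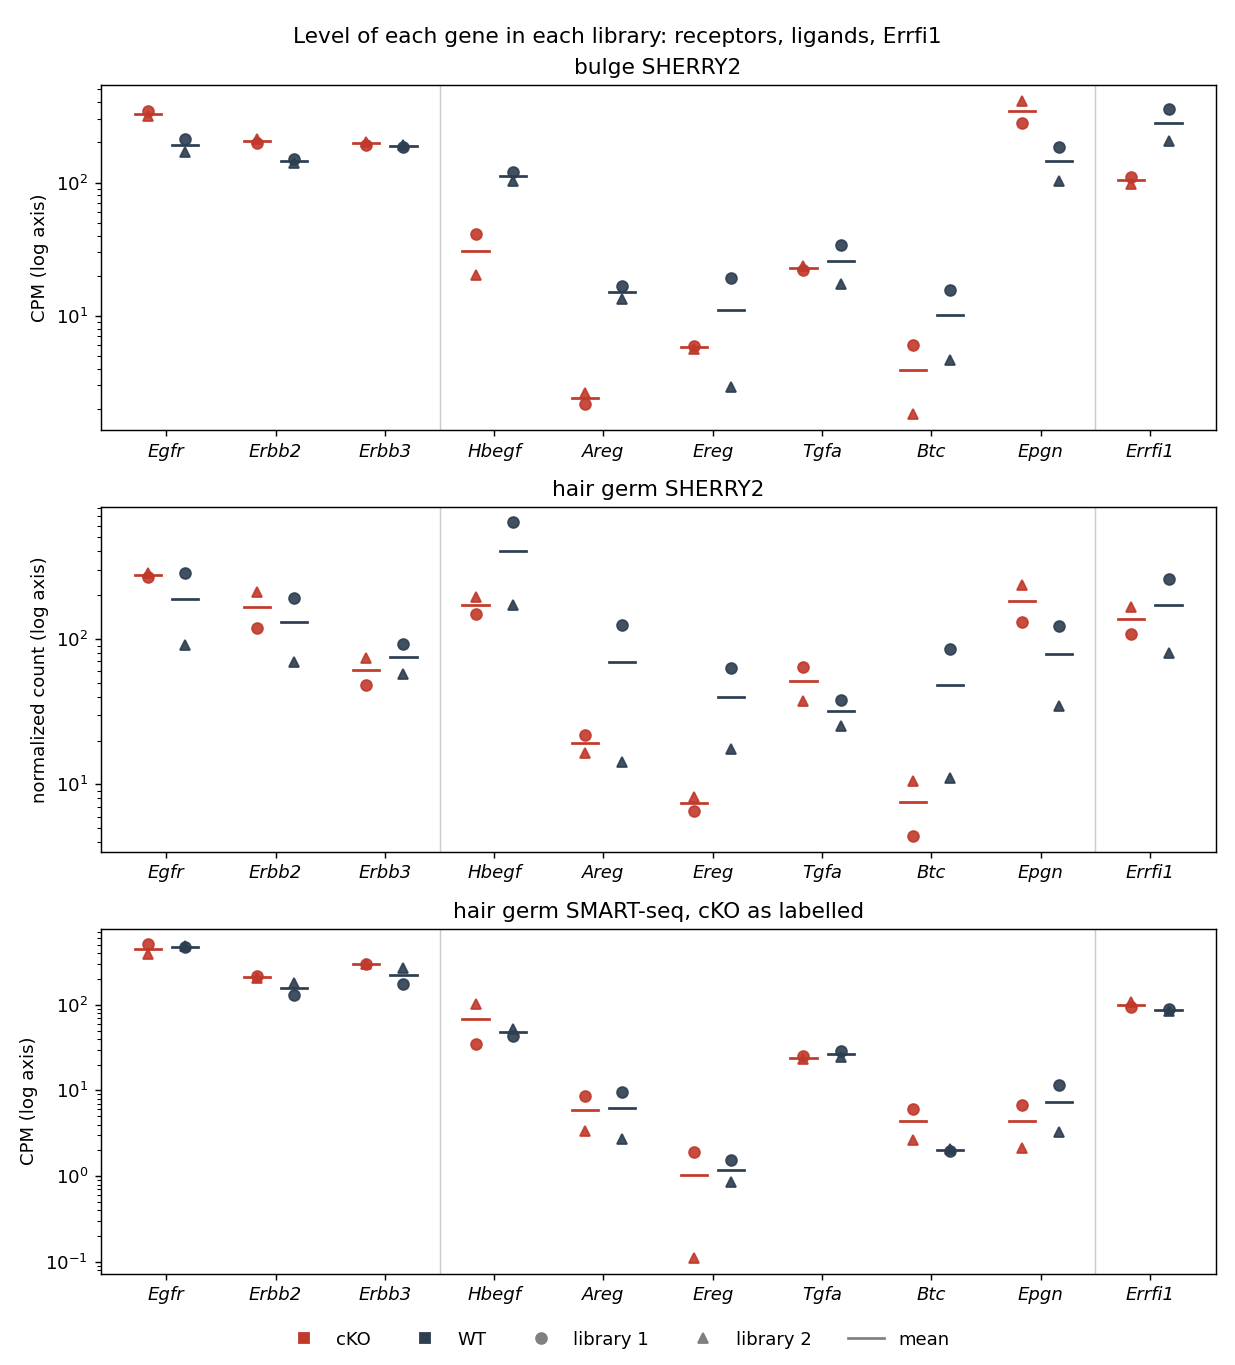
Level of each gene in each library, with receptors on the left, ligands in the middle and Errfi1 on the right of each panel. The vertical axis is CPM for the bulge and SMART-seq and the normalized count for hair germ SHERRY2, on a log scale, with red points for cKO, dark points for WT, circles and triangles for libraries 1 and 2, and lines at group means. In the bulge the red points of Hbegf, Areg and Errfi1 lie below both dark points, and in hair germ SHERRY2 WT library 1 stands highest for Hbegf, Areg, Ereg, Btc and Errfi1.

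Per kilobase of exon, Epgn was the most abundant member in the bulge, at 191 ± 52.2 FPKM in cKO and 79.8 ± 32.8 FPKM in WT (FPKM, which divides the read count by depth and exon length, SD, n = 2 each). In cKO libraries it was followed by Erbb2 at a mean of 39.6 FPKM, Erbb3 at 32.8, Errfi1 at 29.1 and Egfr at 29.0, where the last 2 overlapped. Hbegf at 6.36 FPKM, Tgfa at 3.52, Areg at 1.97, Ereg at 1.40 and Btc at 0.867 came below all receptors. In WT libraries Errfi1, at 78.6 FPKM, overlapped with Epgn, and Hbegf at 23.0 FPKM lay above Egfr at 16.9. Areg was at 12.4 FPKM in WT libraries, and Tgfa, Ereg and Btc, between 2.24 and 3.93 FPKM, overlapped with their neighbours in that order.

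The make-up of the ligand mRNA differed with these levels. Epgn made up 90.3 and 95.1% of the summed FPKM of the 6 ligands in bulge cKO libraries, against 66.5 and 60.7% in bulge WT libraries. Hbegf made up 5.02 and 1.74% in cKO libraries, against 15.9 and 22.8% in WT libraries. Areg made up 1.04 and 0.901% in cKO libraries, against 8.91 and 11.8% in WT libraries. Without Epgn, the summed FPKM of the other 5 ligands was 16.5 and 11.7 in cKO libraries, against 51.8 and 36.7 in WT libraries, so those groups did not overlap. The summed FPKM of Egfr, Erbb2 and Erbb3 was 100.5 and 102 in cKO libraries, against 78.3 and 73.8 in WT libraries. With 2 libraries against 2, an exact permutation test of such a share cannot give a two-sided p below 0.333, and no test was made.

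**Figure D2:**
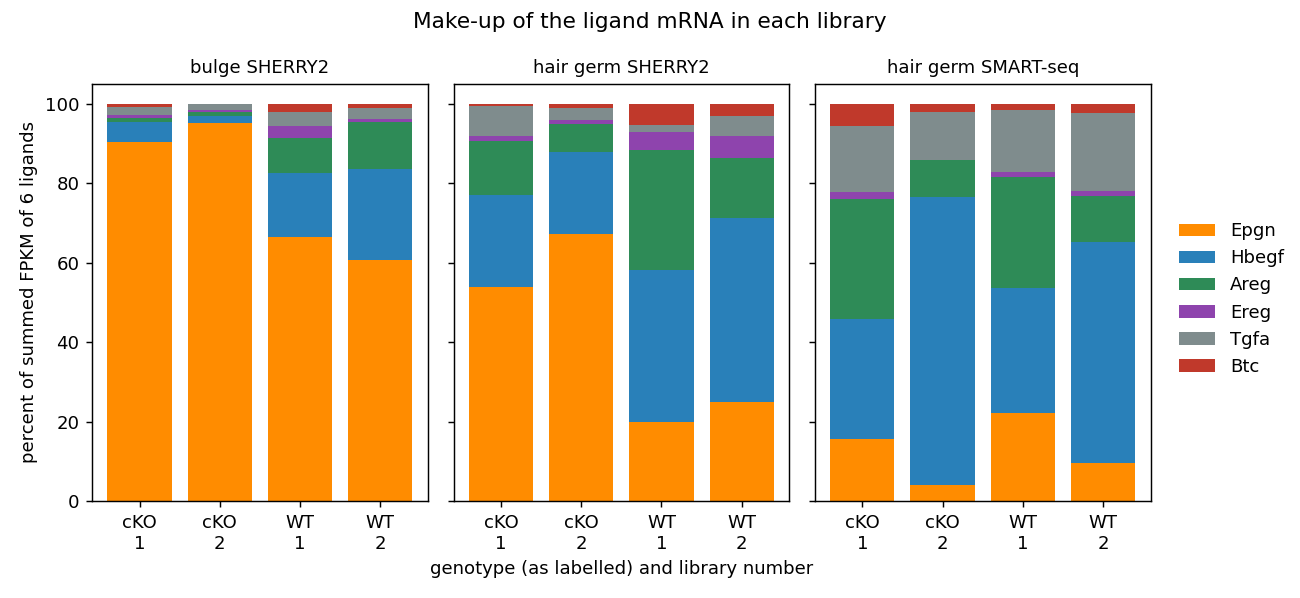
Share of each ligand in the summed FPKM of the 6 ligands, in percent, with 1 bar per library and cKO bars left of WT bars in each dataset. Epgn (orange) takes 90.3 and 95.1% in bulge cKO libraries and 66.5 and 60.7% in bulge WT libraries. It takes 53.9 and 67.1% in hair germ SHERRY2 cKO libraries, against 19.8 and 24.9% in WT libraries, and 22.2% or less in each SMART-seq library.

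Epgn, Ereg, Areg and Btc lie in 1 cluster on chromosome 5, at 91175323 to 91183074, 91222481 to 91241505, 91287458 to 91296291 and 91505120 to 91550853 in the bulge table, which names no genome build. From the start of Epgn to the end of Btc the cluster spans 376 kb. Neighbours in it differed in the sign of their bulge log2 fold change, with Epgn at 1.08 and Areg at -2.82. The Egfr gene overlaps Egfros on the opposite strand (250 reads over the 4 bulge libraries), Erbb2 overlaps Mien1 (1847 reads), Ereg overlaps Gm19610 (30 reads) and Tgfa overlaps Gm43917 (16 reads). These read numbers cover each whole partner gene. Egfros and Gm43917 lie within the spans of Egfr and Tgfa. Mien1 starts at 98328534, just before Erbb2 ends at 98328542, and Gm19610 ends at 91222632, just after Ereg starts at 91222481. Whether reads were counted by strand is not given in the sources used here, so reads in the shared stretches cannot be told apart.

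**Figure D3:**
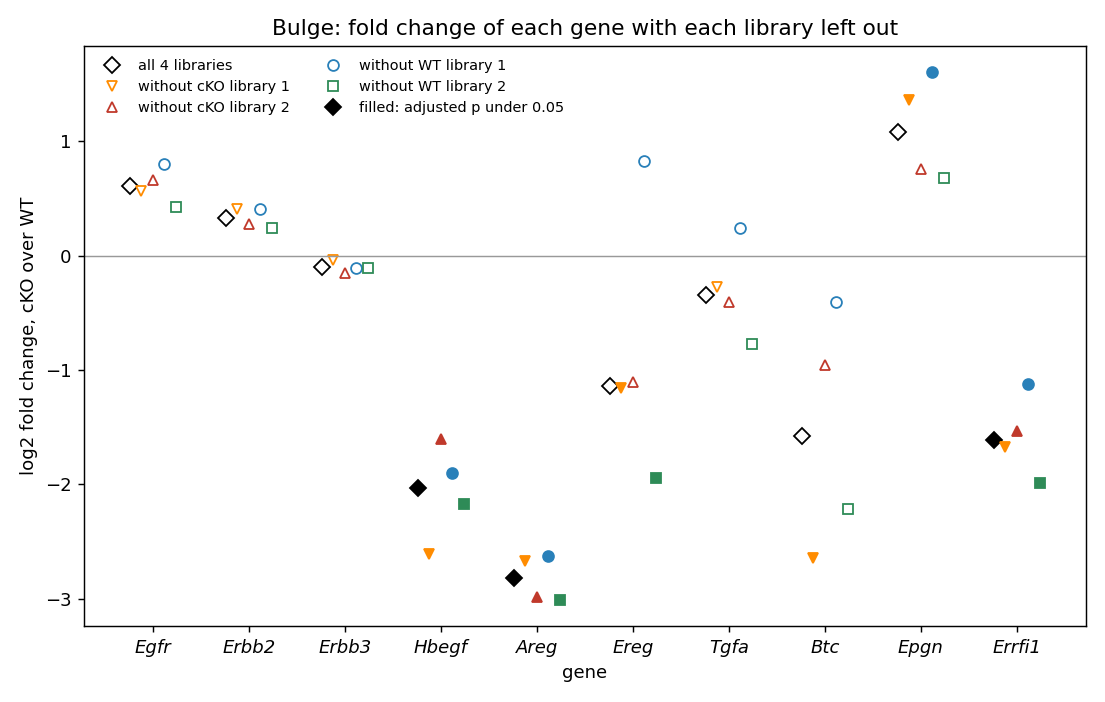
Bulge log2 fold change, cKO over WT, of each gene with all 4 libraries (black) and with each library left out (colours), where filled points have an adjusted p under 0.05 in edgeR. Areg, Hbegf and Errfi1 stay filled and below 0 throughout, Ereg and Tgfa cross 0 without WT library 1, and Epgn is filled only without WT library 1 or cKO library 1.

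Other genes that act with the family were counted in the bulge by role. Of 12 genes of ERK feedback, all tested, 3 passed and were lower in cKO and none passed as higher, beside 1.6% lower and 1.44% higher among all genes tested. The list's median log2 fold change was -0.38 beside -0.01 over all genes, and 3 of its genes had a positive and 9 a negative log2 fold change. An unadjusted p under 0.05 was found for 7 of them, beside 2968 of all 15672 genes tested. Dusp5, a nuclear phosphatase of ERK, had 16.9 and 10.8 CPM in cKO libraries, against 60.0 and 55.0 CPM in WT libraries, with a log2 fold change of -2.23 (adjusted p = 0.00538, edgeR). Dusp1, a phosphatase of several MAP kinases, had 1080 and 629 CPM in cKO libraries, against 2874 and 1992 CPM in WT libraries, with a log2 fold change of -1.69 (adjusted p = 0.037, edgeR). Ier3, an early response gene, had a log2 fold change of -1.18 (adjusted p = 0.0254, edgeR). Dusp1 no longer passed without WT library 1 (adjusted p = 0.0583), nor Ier3 without WT library 2 (adjusted p = 0.0712). In the same list Spry4, an inhibitor of receptor signalling to ERK, had 38 and 48 reads in cKO libraries, against 12 and 6 in WT libraries, with a log2 fold change of 2.13 (adjusted p = 0.122, edgeR). Dusp4, another nuclear phosphatase of ERK, had 29 and 92 reads in cKO libraries, against 21 and 5 in WT libraries, with a log2 fold change of 2.07 (adjusted p = 0.178, edgeR). Both had values that were higher in both cKO libraries and did not pass.

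Of 8 tested genes of shedding and ligand processing, 7 had a positive and 1 a negative log2 fold change, with a list median of 0.16. An unadjusted p under 0.05 was found for 1 of them. The only gene to pass was Timp3, an inhibitor of ADAM17, higher in cKO, beside 1.44% higher and 1.6% lower among all genes tested. It had 180.1 and 181 CPM in cKO libraries, against 92.3 and 90.3 CPM in WT libraries, with a log2 fold change of 0.81 (adjusted p = 0.029, edgeR), and did not pass without WT library 2 (adjusted p = 0.0965). None passed among 14 receptor inhibitors and turnover genes (list median -0.19), 17 adaptors and ERK cascade genes (-0.01), 8 other downstream kinases (-0.16) and the 4 tested of the 6 other receptors and ligands (1.01), by edgeR. In that order 2, 1, 1 and 2 of their genes had an unadjusted p under 0.05, beside 2968 of all 15672 genes tested. In that last list Nrg1, a neuregulin ligand of Erbb3, had a log2 fold change of 1.20 (adjusted p = 0.18, edgeR).

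Some marker lists of cell state and of other cells also differed between genotypes in the bulge. The summed level of 11 immediate early and dissociation genes, such as Fos, Jun and Egr1, was 11920 and 2644 CPM in cKO libraries, against 35000 and 21833 CPM in WT libraries. The 9 immune markers, all with reads, summed to 54.2 to 102 CPM in cKO libraries, against 205 to 259 CPM in WT libraries. The 5 sebaceous markers, all with reads, summed to 479 to 687 CPM in cKO libraries, against 234 to 253 CPM in WT libraries. Of these Scd1 alone had 410 and 598 CPM in cKO libraries, against 196 and 200 CPM in WT libraries. Mgst1 and Awat1 of that list, and Lyz2 and Csf1r of the immune list, overlapped between genotypes. The sums of the keratinocyte, suprabasal, inner bulge, fibroblast, endothelial and melanocyte lists also overlapped. The part of these markers in the lower Areg, Hbegf and Errfi1 was not tested. In such bulk samples, fewer cells that make a transcript and less of it per cell cannot be told apart. Without the male WT library 2, Areg, Hbegf and Errfi1 had log2 fold changes of -3.01, -2.17 and -1.99, each with an adjusted p under 0.05 in edgeR.

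In hair germ SHERRY2 no member passed the test on normalized counts, in which Ereg and Btc had the lowest p. With limma on log2(normalized count + 1), 0 of the 10 members passed, beside 0.0077% of 38953 genes tested. An unadjusted p under 0.05 was found for 2 members, Ereg and Btc, beside 1801 of the 38953 genes. Normalized counts are reads divided by a size factor of the library. The factors were 1.36 and 1.22 in cKO libraries, against 1.02 and 0.632 in WT libraries. Reads in genes were 1526070 and 2317407 in cKO libraries, against 1513001 and 488648 in WT libraries. The factors did not follow the reads, so normalized counts do not sum to the same total in each library. Ereg had 6.60 and 8.16 normalized counts in cKO libraries, against 62.6 and 17.4 in WT libraries. Btc had 4.40 and 10.6 in cKO libraries, against 85.1 and 11.1 in WT libraries. For both genes WT library 1 was far above the other 3 libraries. The log2 fold changes were -2.04 for Ereg (SE 0.59, adjusted p = 0.595, limma) and -2.03 for Btc (SE 0.62, adjusted p = 0.724, limma).

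Areg had 22.0 and 16.3 normalized counts in hair germ SHERRY2 cKO libraries, against 125 and 14.2 in WT libraries. WT library 2 was the lowest of the 4 and WT library 1 the highest. The log2 fold change was -1.14 (SE 0.64, adjusted p = 0.97, limma), and it turned to 0.39 without WT library 1. Hbegf had 149 and 194 normalized counts in cKO libraries, against 632 and 172 in WT libraries, with a log2 fold change of -0.95 (SE 1.00, adjusted p = 0.97, limma). Errfi1 had 109 and 167 normalized counts in cKO libraries, against 260.3 and 80.6 in WT libraries, and a log2 fold change of -0.11 (SE 0.84, adjusted p = 0.992, limma). The WT libraries thus lay on both sides of the cKO libraries for Areg and Errfi1 in normalized counts.

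Epgn had 129.8 and 235 normalized counts in hair germ SHERRY2 cKO libraries, against 122 and 34.8 in WT libraries. Both cKO libraries were higher, the lower of them only just, with a log2 fold change of 1.40 (SE 0.78, adjusted p = 0.97, limma). Tgfa had 64.5 and 37.6 normalized counts in cKO libraries, against 38.2 and 25.3 in WT libraries. The receptor Egfr had 266 and 283 normalized counts in cKO libraries, against 285 and 90.1 in WT libraries. On that scale WT library 2, the shallowest of the 4, was far below the rest. In CPM Egfr had 238 and 149 in cKO libraries, against 192 and 117 in WT libraries. WT library 2 was also the lowest for Erbb2, with 119.5 and 210 normalized counts in cKO libraries, against 189.8 and 69.6 in WT libraries. Erbb3 had 48.4 and 74.3 normalized counts in cKO libraries, against 93.0 and 56.9 in WT libraries. These 4 genes overlapped between genotypes in normalized counts, with log2 fold changes from -0.27 for Erbb3 to 0.77 for Egfr. In all 3 of the 10 members did not overlap in normalized counts, Epgn higher and Ereg and Btc lower, beside 32.8% of the genes tested. That count depended on the scaling. In CPM 6 members did not overlap, with Erbb3, Hbegf and Errfi1 also lower in cKO, beside 30.5% of the genes tested, 9.13% higher and 21.4% lower. In TMM-scaled CPM the 3 of the normalized counts did not overlap, beside 32.2% of the genes tested, 14.7% higher and 17.5% lower. Hbegf had 133 and 103 CPM in cKO libraries, against 427 and 223 CPM in WT libraries, and Errfi1 had 97.0 and 88.0 CPM in cKO libraries, against 176 and 104 CPM in WT libraries.

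Whole reads could be recovered from the normalized counts, and edgeR on them called Btc, Ereg and Areg lower in cKO. The log2 fold changes were -2.86 for Btc (SE 0.62, adjusted p = 0.00321, edgeR), -2.62 for Ereg (SE 0.64, adjusted p = 0.017, edgeR) and -1.98 for Areg (SE 0.53, adjusted p = 0.0489, edgeR). These were 3 of the 10 members, beside 0.383% of 16707 genes tested, 0.108% higher and 0.275% lower. The calls rested on few reads and on WT library 1. Btc had 6 and 13 reads in cKO libraries, against 87 and 7 in WT libraries. Ereg had 9 and 10 reads in cKO libraries, against 64 and 11 in WT libraries.

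None of the 3 calls held when cKO library 1, cKO library 2 or WT library 1 was left out, all 3 held without WT library 2, and DESeq2 on the same reads called no gene. Olfactory and vomeronasal receptor genes, for which skin cells have no known use, had a 95th percentile of 13.9 and 11.4 normalized counts in cKO libraries, against 12.7 and 17.4 in WT libraries. The values of Btc and Ereg in the cKO libraries, and of Btc and Areg in WT library 2, were below that level, and Ereg in WT library 2 was at it. The summed immediate early genes were at 15610 and 17954 CPM in cKO libraries, against 30853 and 22871 CPM in WT libraries, and their part in these differences was not tested. Markers of differentiated epidermis, apart from Sprr1a, were also high in WT library 1. Sprr1a had 22.3 and 25.0 CPM in cKO libraries, against 19.8 and 18.4 CPM in WT libraries. The 6 suprabasal markers, all with reads, summed to 1914 and 2656 CPM in cKO libraries, against 9019 and 1985 CPM in WT libraries. Lor, which encodes loricrin of the cornified envelope, had 11.1 and 122 CPM in cKO libraries, against 1866 and 18.4 CPM in WT libraries, and Ivl, which encodes involucrin, had 12.5 and 12.5 CPM in cKO libraries, against 137 and 14.3 CPM in WT libraries. Btc, Ereg and Areg were highest in that same library, and the part of these markers in their calls was not tested.

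In hair germ SMART-seq no member passed the test between the libraries labelled cKO and the WT libraries. With edgeR 0 of the 10 members and 0% of 17547 genes passed, 179 genes had an unadjusted p under 0.05, none of them a member, and DESeq2 also called 0 genes. Areg had 8.62 and 3.33 CPM in the libraries labelled cKO, against 9.71 and 2.68 CPM in WT libraries. Number 1 of each genotype was high and number 2 low, and number 1 was female and number 2 male in both. Epgn showed the same order, with 6.69 and 2.11 CPM in the libraries labelled cKO, against 11.4 and 3.29 CPM in WT libraries. Markers of other follicle and epidermal cells also differed between numbers 1 and 2. The 6 suprabasal markers summed to 699.8 and 232 CPM in the libraries labelled cKO, against 558 and 123 CPM in WT libraries, high in number 1. The inner bulge markers summed to 539 and 1224 CPM in the libraries labelled cKO, against 304 and 1534 CPM in WT libraries, and the melanocyte markers to 25.6 and 171 CPM in the libraries labelled cKO, against 25.4 and 127 CPM in WT libraries, both high in number 2. The part of sex and of these markers in the order of Areg and Epgn was not tested.

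Hbegf had 34.3 and 103 CPM in the SMART-seq libraries labelled cKO, against 43.1 and 51.6 CPM in WT libraries, which lay between them. Errfi1 had 92.8 and 108 CPM in the libraries labelled cKO, against 89.3 and 85.4 CPM in WT libraries, with a log2 fold change of 0.18 (SE 0.19, adjusted p = 1.00, edgeR). Egfr had 506 and 394 CPM in the libraries labelled cKO, against 469.8 and 478 CPM in WT libraries. Erbb2 had 214 and 204 CPM in the libraries labelled cKO, against 130.5 and 180.1 CPM in WT libraries, and a log2 fold change of 0.41 (SE 0.22). Erbb3 had 295 and 299 CPM in the libraries labelled cKO, against 174 and 264 CPM in WT libraries, and a log2 fold change of 0.42 (SE 0.25). For both receptors the libraries labelled cKO lay close together and above the WT libraries. Tgfa had 25.1 and 23.1 CPM in the libraries labelled cKO, against 28.9 and 24.5 CPM in WT libraries. Btc had 82 and 24 reads in the libraries labelled cKO, against 28 and 24 in WT libraries, so that number 1 labelled cKO alone was high. Ereg had 26 and 1 reads in the libraries labelled cKO, against 22 and 10 in WT libraries, too few for its log2 fold change of -0.22 (SE 1.18) to be read. Erbb2, Erbb3, Btc and Errfi1 did not overlap in CPM and had values that were higher in the libraries labelled cKO. These were 4 of the 10 members, beside 13% of genes tested that were higher without overlap and 23.9% without overlap in either direction. In TMM-scaled CPM Errfi1 overlapped and the other 3 did not, and the share over all genes was not counted on that scale. Immediate early genes summed to 6380 and 6021 CPM in the libraries labelled cKO, against 10724 and 5317 CPM in WT libraries, which overlapped. In both hair germ datasets no gene passed in any of the 6 lists of other genes of the pathway, by limma in SHERRY2 and edgeR in SMART-seq. In each, 1 gene of these lists had an unadjusted p under 0.05, Dusp5 in SHERRY2 and Dusp6 in SMART-seq. Over all genes tested the numbers were 1801 of 38953 in SHERRY2 and 179 of 17547 in SMART-seq. Erbb4, with 12355 exonic bases, had 38 and 20 reads in hair germ SHERRY2 cKO libraries, against 28 and 17 in WT libraries. Olfactory and vomeronasal receptor genes there had a 95th percentile of 19 and 14 reads in cKO libraries, against 13 and 11 in WT libraries. Whether Erbb4 exceeds that level for its length was not tested. In SMART-seq Erbb4 had 16 and 23 reads in libraries labelled cKO, against 20 and 14 in WT libraries.

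**Figure D4:**
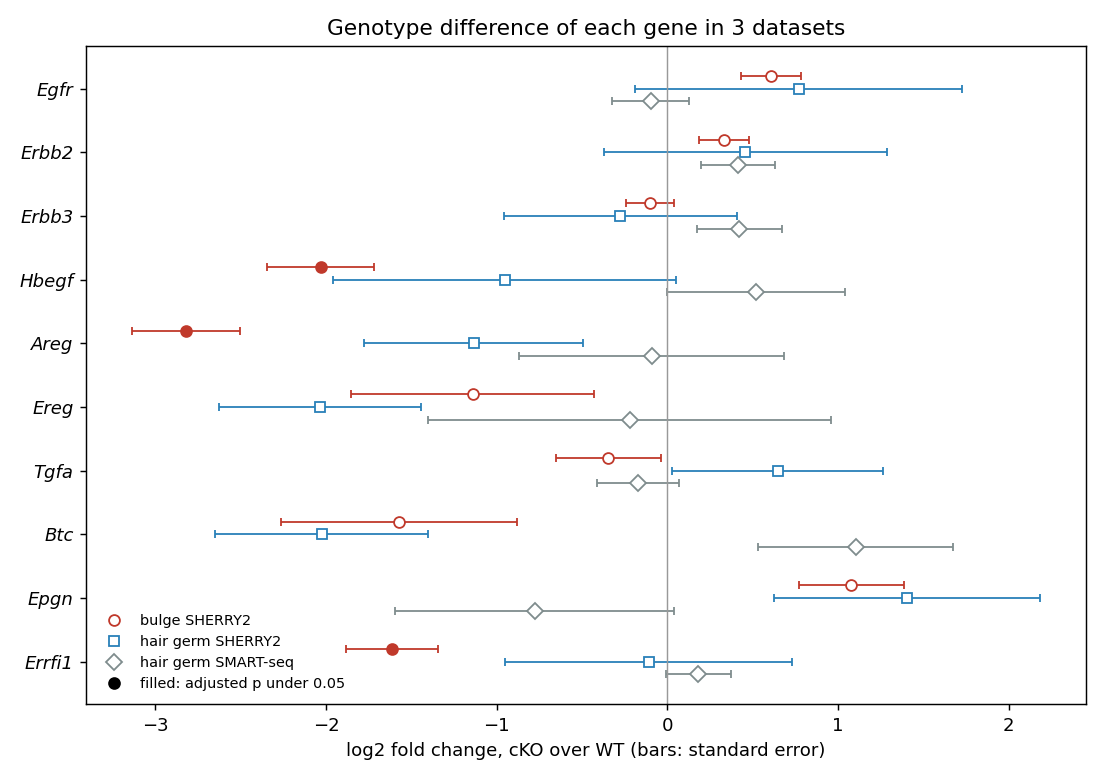
Log2 fold change of each gene, cKO over WT, with its standard error in the bulge (red circles), hair germ SHERRY2 (blue squares, limma) and hair germ SMART-seq (grey diamonds, cKO as labelled). Filled points have an adjusted p under 0.05, and they are Hbegf, Areg and Errfi1 in the bulge.

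The genotype effects of the bulge and of each hair germ dataset were set against each other in joint edgeR fits, and 0 of the 10 members passed in either. Against hair germ SHERRY2, 0.119% of 26139 genes passed, and no member had an unadjusted p under 0.05. The log2 fold change in the bulge minus that in hair germ SHERRY2 was -0.74 for Areg (SE 0.71, adjusted p = 0.931, edgeR), -0.52 for Hbegf (SE 0.55, adjusted p = 0.95, edgeR) and -0.98 for Errfi1 (SE 0.55, adjusted p = 0.733, edgeR). Against SMART-seq, 0.0413% of 19371 genes passed. There 5 members, Areg, Hbegf, Btc, Egfr and Errfi1, had an unadjusted p under 0.05 in edgeR. Without a filter on low counts 5 members passed, Areg, Hbegf, Btc, Epgn and Errfi1. The difference there was -2.73 for Areg (SE 0.92, adjusted p = 0.701, edgeR), -2.54 for Hbegf (SE 0.71, adjusted p = 0.604, edgeR) and -1.79 for Errfi1 (SE 0.39, adjusted p = 0.453, edgeR). The lower Areg, Hbegf and Errfi1 of the bulge were not shown to be particular to it.

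Levels per length, set side by side across tables that were counted separately, placed Epgn first among the ligands in the bulge and far lower by SMART-seq. In hair germ SHERRY2 Epgn was at 64.2 and 68.8 FPKM in cKO libraries, against 45.7 and 24.9 FPKM in WT libraries, and in SMART-seq at 3.70 and 1.17 FPKM in the libraries labelled cKO, against 6.33 and 1.82 FPKM in WT libraries. Egfr averaged 17.1 ± 5.53 FPKM in cKO and 13.6 ± 4.73 FPKM in WT in hair germ SHERRY2 (SD, n = 2 each). In SMART-seq it averaged 39.7 FPKM in the libraries labelled cKO and 41.8 FPKM in WT libraries. The exon lengths of the bulge table were used for all 3 datasets. Library method and cell type change together between the bulge and SMART-seq and cannot be told apart there.

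Across the 12 libraries, with each dataset centred on its own mean and 8413 genes compared, the pattern of Errfi1 in log2(CPM + 1) was most like that of Gcc1 (Pearson r = 0.92), Dnajb1 (r = 0.893) and Glul (r = 0.892). Hbegf followed Errfi1 with r = 0.867. The pattern of Egfr was most like that of Birc6 (r = 0.981), Prr14l (r = 0.957) and Msn (r = 0.945), and its r with Errfi1 was -0.441. The points share libraries, depth and scaling, and these values are a description with no test. Areg was below the level of 10 CPM required in each dataset and was not compared.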

How the data were processed

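RNA-seq tables of 12 libraries were used. The bulge and SMART-seq tables hold read counts per gene deposited by the authors, and the bulge table also holds FPKM values made by the authors, which were recomputed from counts and exonic size within 0.00497 FPKM for the members. The hair germ SHERRY2 table, laid out as a DESeq2 result, holds a deposited signal per library, reads divided by a size factor. Its log2 fold changes, scores and p-values, as deposited by the authors, were not used. The submitters' processing notes name Trim Galore, STAR, featureCounts and DESeq2 with GRCm38 and mm10, and for the SMART-seq experiment also HISAT2 and GRCm39. The sources used here give no versions.

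Counts were tested with edgeR 4.0.16 (quasi-likelihood, TMM, filterByExpr) in R 4.3.3, cKO against WT, two-sided, with Benjamini-Hochberg adjustment over all genes tested and a threshold of 0.05. Since the hair germ SHERRY2 values are not counts, limma 3.58.1 with a trend was used on log2(value + 1) on genes averaging 1 or more, which understates changes of low genes. All values (100%) were whole reads within 0.01, so edgeR and DESeq2 1.42.0 were also run on the recovered reads. That table's columns give genotype and number in their names, and the numbers were not tied to other labels. Differences between datasets were tested in edgeR by an interaction of dataset and genotype. CPM use the summed count of each table.

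All 10 members are named. Of the other lists, genes past the threshold and Erbb4 and Egf are named. Nrg1, Spry4, Dusp4, Dusp6 and the single markers Lor, Ivl, Sprr1a, Scd1, Mgst1, Awat1, Lyz2 and Csf1r were chosen after their values were seen. Members and lists were chosen with earlier results of these data known. Each library was taken as 1 mouse, per its label, and p-values rest on 2 mice per group. The fits were tested on simulated data. Alternatives were other size factors, DESeq2, no filter, other pseudocounts and filters, a replicate block and each library left out. edgeR with a library left out of the recovered reads a crossed block and the overlap of groups under other scalings were added after seeing the data.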

Additional observations from a re-analysis of the deposited data

Results flagged for a closer look

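The log2 fold change of Alkbh5 differed between datasets. That in the bulge minus that in hair germ SHERRY2 was -2.55 (SE 0.53, adjusted p = 0.0418, joint edgeR fit), with both cKO libraries lower than both WT libraries in each dataset. In hair germ SHERRY2 Alkbh5 had 19.8 and 13.1 normalized counts in cKO libraries, against 93.0 and 47.4 in WT libraries, where olfactory and vomeronasal receptor genes had a 95th percentile of 13.9 and 11.4 in cKO libraries and 12.7 and 17.4 in WT libraries. In the bulge that percentile was 0 in each library, and the part of this level in the difference was not tested. In the bulge minus SMART-seq the difference was -4.67 (SE 0.41, adjusted p = 0.0335, joint edgeR fit), and the SMART-seq libraries labelled cKO overlapped with the WT libraries. Leaving out single libraries gave adjusted p-values of 0.00192 to 0.135 for the first difference and 0.00772 to 0.182 for the second in edgeR. None of the 10 genes of the EGF family passed this test in either fit. Groups of 2 libraries are too small to look for a single library that stands apart.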

How the results depend on the processing

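The bulge calls of Areg, Hbegf and Errfi1 held under all alternatives run. The count of genes changed in the bulge, 476, was 1191 with DESeq2, 1549 without a filter and 218 to 1601 with a library left out (1601 without cKO library 1, 733 without cKO library 2, 218 without WT library 2). Members changed were 7 without a filter and 3 to 6 with a library left out. In hair germ SHERRY2 the 3 genes of limma were 0 with a pseudocount of 0.1, without a filter and by DESeq2, 16 at a mean of at least 10, 64 by edgeR and 0 to 79 (limma) or 0 to 113 (edgeR) with a library left out, with 0 to 3 members. Members without overlap between genotypes were 6 in CPM in hair germ SHERRY2, 3 in normalized counts. SMART-seq gave 30 genes without a filter. Genes whose effect differed between bulge and hair germ SHERRY2 were 11 without a filter and 32 to 605 with a library left out. Against SMART-seq they were 513 without a filter, 5 of them members, and 0 to 18 with a library left out.

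Same-numbered libraries had deviations correlated at 0.0106 in the bulge, -0.171 in hair germ SHERRY2 and 0.228 in SMART-seq. The labels do not pair them, and these values cannot show whether they share a block. In SMART-seq sex went with the number in both genotypes. With a replicate block the counts were 506, 5 and 0 genes, and 66 and 3 for the differences between datasets, and Areg in SMART-seq turned to 0.028. A crossed replicate block, which pairs libraries of different numbers, gave 468 genes in hair germ SHERRY2, 3 of them members. No label gives this pairing, and it was added after seeing the data, so neither count can be read as genes changed by genotype.

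With a library left out, log2 fold changes that crossed 0 ranged, in the bulge, from -1.94 to 0.83 for Ereg and -0.77 to 0.24 for Tgfa. In hair germ SHERRY2 they were -0.054 to 1.59 for Egfr, -0.26 to 1.18 for Erbb2, -0.62 to 0.074 for Erbb3, -2.66 to 0.39 for Areg and -0.95 to 0.73 for Errfi1 in limma. In edgeR the values of the other sign were -0.12 for Egfr, -0.17 and -0.30 for Erbb2, 0.093 for Areg, -0.083 for Tgfa and 0.41 for Errfi1. In SMART-seq they were -0.26 to 0.055 for Egfr, -0.50 to 1.13 for Hbegf, -0.90 to 1.17 for Areg, -3.31 to 0.63 for Ereg, -1.81 to 0.44 for Epgn and -0.52 to 0.0031 for Alkbh5. The Hbegf difference between bulge and hair germ SHERRY2 ranged from -1.31 to 0.0032. The cause of these changes was not tested. The 2 mice per genotype and, in hair germ SHERRY2, few reads per ligand limit what can be told apart.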
